A study of Mus musculus with 141 samples.

Results

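The amino acid transporters described here are the genes whose symbols begin with Slc1a, Slc3a, Slc6a, Slc7a, Slc36a, Slc38a or Slc43a followed by a digit. The files list 66 such genes among 24423. Of these, 63 are carriers or carrier subunits and 3 are named for the strand opposite a carrier (*Slc36a1os*, *Slc6a19os* and *Slc7a6os*). The latter 3 are not carriers but are counted with the members and transporters below. Slc6 has 22 of the 66, Slc7 16, Slc38 11, Slc1 7, Slc36 5, Slc43 3 and Slc3 2. RNA was measured in whole liver, lung and kidney of 47 Collaborative Cross (CC) strains, inbred lines that mix the genomes of a shared set of founder strains. There was 1 male mouse per strain, aged 8 to 12 weeks, so the 3 groups were 47 livers, 47 lungs and 47 kidneys. All mice ate the NTP 2000 wafer diet and spent 6 hours per weekday for 2 weeks in metal mesh chambers with clean air, so every group shares the stay in the chamber and no group is without it. With a single mouse per strain, a strain's effect and that mouse's own state cannot be told apart.

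Amino acids cross membranes mainly through carriers, which are sorted by sequence into solute carrier (Slc) families. Slc1 carriers couple glutamate or neutral amino acids to sodium, potassium or exchange, and Slc6 carriers use sodium and chloride and take up neurotransmitters, osmolytes such as taurine and betaine, and neutral amino acids. Slc7 carriers move cationic and neutral amino acids or exchange cystine, and several of them reach the membrane only when joined to a heavy subunit of the Slc3 family. Slc38 carriers move glutamine and other small neutral amino acids, Slc36 carriers are driven by protons and Slc43 carriers work by facilitated diffusion. In the kidney, proximal tubule cells recover filtered amino acids with such carriers. In the liver, hepatocytes use them to supply urea synthesis and gluconeogenesis, with periportal and perivenous cells differing in how they handle glutamine and glutamate.

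The upstream sequences of 3 members whose strain values are described below are shown. *Slc3a1* values in the liver fell into separate clusters, and the neighbours *Slc6a20a* and *Slc6a20b* had differing strain values. No result below uses the sequences. They come from RefSeq on GRCm38.p6, a later build than that of the files, and cover the 250 bases before the annotated start, written 5′ to 3′ on the gene's strand. RefSeq windows were matched to 48 of the 66 members by symbol. Capitals mark every match, on either strand, to TATAAA (the TATA box), to CAAAGTCCA (a binding sequence of HNF4, a factor of liver and proximal tubule) or to GTTAAT (a half-site of HNF1, another such factor). *Slc3a1* lies at chr17:85028097-85028346 on the plus strand, *Slc6a20a* at chr9:123678833-123679082 on the minus strand and *Slc6a20b* at chr9:123632539-123632788 on the minus strand.
Slc3a1: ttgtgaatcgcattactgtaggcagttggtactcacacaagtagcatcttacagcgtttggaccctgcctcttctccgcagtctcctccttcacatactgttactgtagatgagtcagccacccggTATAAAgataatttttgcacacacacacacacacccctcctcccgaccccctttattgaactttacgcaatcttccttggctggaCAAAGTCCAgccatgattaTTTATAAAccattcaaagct
Slc6a20a: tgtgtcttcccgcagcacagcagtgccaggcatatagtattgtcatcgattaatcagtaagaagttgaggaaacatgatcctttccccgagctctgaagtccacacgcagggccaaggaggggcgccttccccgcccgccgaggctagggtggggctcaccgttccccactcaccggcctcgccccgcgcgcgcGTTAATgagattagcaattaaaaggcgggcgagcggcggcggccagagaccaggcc
Slc6a20b: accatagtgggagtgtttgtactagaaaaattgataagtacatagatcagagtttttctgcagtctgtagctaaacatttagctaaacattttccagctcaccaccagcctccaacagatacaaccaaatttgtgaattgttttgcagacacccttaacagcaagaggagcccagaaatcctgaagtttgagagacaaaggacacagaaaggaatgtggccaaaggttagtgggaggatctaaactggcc
The *Slc3a1* window holds CAAAGTCCA with its first base 39 bases before the start, and TATAAA at 124 and 18 bases before it, the latter overlapping a reverse match. GTTAAT begins 56 bases before the start of *Slc6a20a*, and none of these letters occurs in the *Slc6a20b* window. Of all 32851 RefSeq windows, searched only over the 250 bases before the start, 0.384% hold CAAAGTCCA, 12.4% hold TATAAA and 6.43% hold GTTAAT. A match is a description of these letters and says nothing about binding. Upstream sequences of the strains themselves were not examined and may differ from these.

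Each library held between 1738046 and 42158454 counts (medians of 10423382 in liver, 9338124 in lung and 8245850 in kidney), and 4 strains had a library under 3000000. Levels are given as CPM, read counts relative to library size after TMM scaling (trimmed mean of M-values), for comparison of a gene between samples. TPM, which also divides by transcript length, is used for comparison between genes. A count of 3, taken as the least that is resolved, stood for a median of 0.544 CPM in liver, 0.220 in lung and 0.352 in kidney, and this covers counting error only. The tissue labels matched their defining markers: a sum over 6 hepatocyte genes was at least 48020 CPM in every liver and at most 964 in any other library, 8 proximal tubule genes summed to at least 6749 CPM in every kidney and at most 904 elsewhere, and 5 genes of type 1 alveolar cells summed to at least 227 CPM in every lung and at most 7.23 elsewhere. In whole tissue, fewer cells of a type and less RNA per cell cannot be told apart.

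Several libraries also carried markers of neighbouring tissue, and these are named before the results because some of them also held the highest values of single transporters. Whether transporters followed these markers over all libraries was not tested. In the livers of CC033, CC035 and CC036 the proximal tubule genes summed to 693, 700 and 322 CPM against a median of 175. After TMM scaling, a count of 3 stood for 4.66 CPM in the liver of CC033, the most in any liver, although that library held 5058429 counts. It also held the highest or the lowest liver value for 18.6% of all genes tested. Whether its tubule sum stays raised without TMM was not tested. The liver of CC006 held 2469 CPM of adrenal and sympathetic genes (median 5.16), and that of CC016 held 487 CPM of macrophage genes (median 143). Exocrine pancreas genes summed to more than 100 CPM in 12 livers (median of all 2.12), from 102 CPM in CC011 to 364 in CC041 and 1805 in CC068, and smooth muscle genes in 2 (194 in CC041 and 174 in CC031, median 11.7). Tissue values were also computed without 6 of these strains (CC006, CC016, CC033, CC035, CC036 and CC068) and without all 18. Adipocyte genes were highest in the kidneys of CC059, CC038 and CC028 (61.3, 49.8 and 31.9 CPM, median 7.84). Hepatocyte genes reached 964 CPM in the kidney of CC027 (median 155) and 530 and 466 CPM in the lungs of CC010 and CC015 (median 53.6).

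On the deposited TPM, the kidney held the most transporter RNA per length. Unlike the CPM, these TPM are not scaled by TMM. The median log2 fold change of all genes for liver against kidney was -0.72 on log2(TPM + 1), against -0.07 with TMM. Whether the order of tissues in the sums holds with TMM scaling was not tested. The summed TPM of the 66 genes had a median of 3546 in kidney (1444 to 5360 over strains), 1364 in lung (375 to 1843) and 1329 in liver (444 to 2090). In each tissue a different gene led. *Slc38a4*, a carrier of neutral and cationic amino acids, made up 59.7% of the liver's sum, with a mean of 807 ± 234 TPM (SD, n = 47), and ranked 128 among all genes there. *Slc7a13*, a carrier of acidic amino acids and cystine in the last part of the proximal tubule, made up 36.4% of the kidney's sum (1262 ± 464 TPM, rank 56). *Slc43a3*, now also known as a purine nucleobase carrier, made up 24.4% of the lung's sum (312 ± 95.4 TPM, rank 278). The next genes were *Slc6a13* (155 TPM) and *Slc38a2* (81.8) in liver, *Slc6a6* (161) and *Slc38a2* (132) in lung, and *Slc3a1* (734) and *Slc6a19* (391) in kidney. The 3 leading genes held 77.2% of the sum in liver, 68.8% in kidney and 47.4% in lung.

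**Figure D1:**
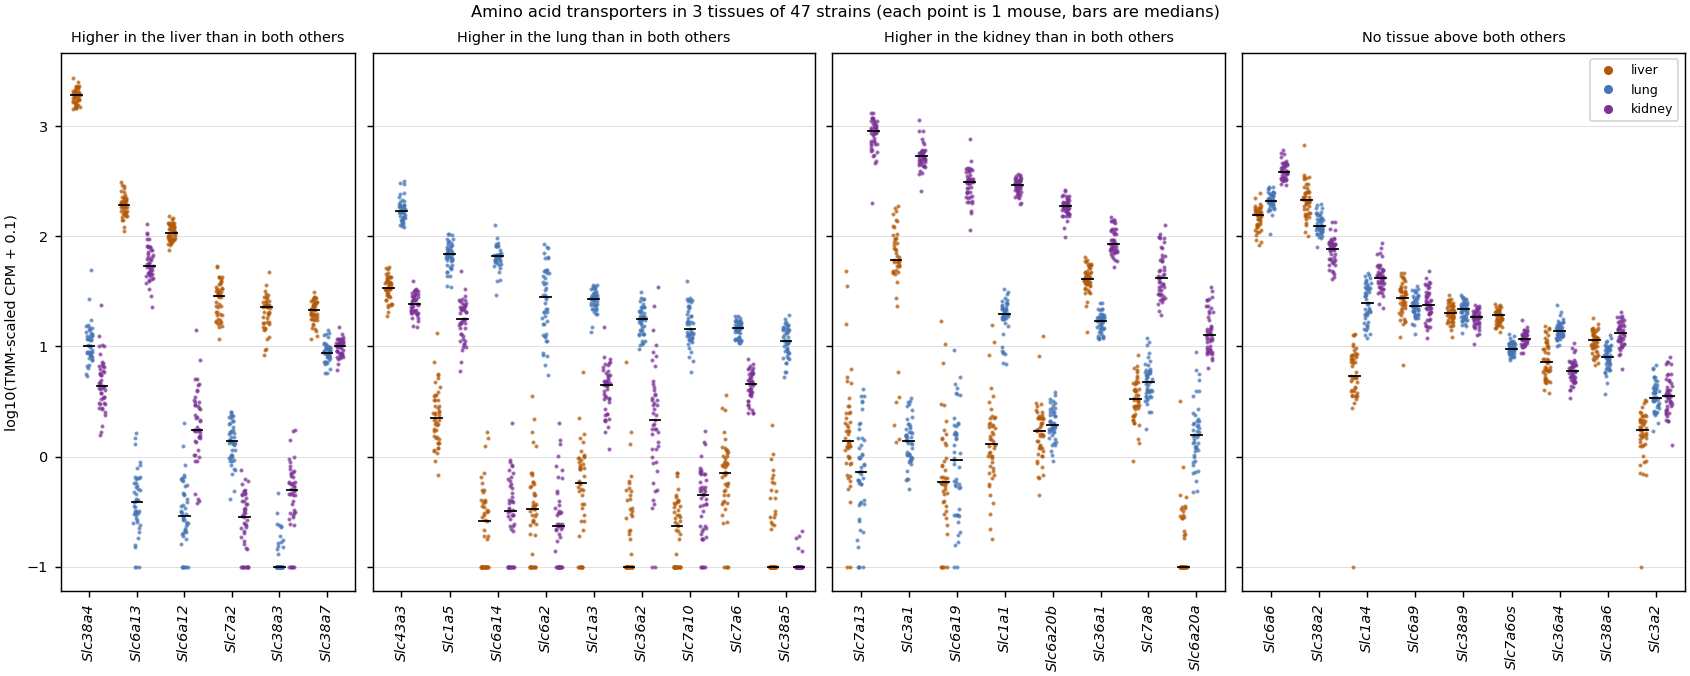
Levels of 32 transporters in 47 livers (brown), 47 lungs (blue) and 47 kidneys (purple), as log10 of TMM-scaled CPM plus 0.1, with 1 point per mouse and a bar at each median. The first 3 panels hold the genes called higher in 1 tissue than in both others and the last panel those without such a tissue, and *Slc38a4* in the liver and *Slc7a13* and *Slc3a1* in the kidney stand at the top of their panels.

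Of the 66 members, 40 were above 1 CPM in 30% or more of the libraries and were compared between tissues. A gene that passed only through a tissue where it was high had to differ, so the counts below describe the members and support nothing by themselves. A gene was called when q was at most 0.1 (limma-voom, Benjamini-Hochberg over all 12127 genes tested) and the log2 fold change was at least 1 in size, and fold changes are given as the tissue named first over the second with their standard error. Liver and lung differed at 28 of the 40, against 54.9% of all genes tested, with 10 higher in liver and 18 higher in lung (23.7% and 31.2% of all genes). Liver and kidney differed at 27, against 36.6% of all genes, with 9 higher in liver and 18 higher in kidney (14.7% and 22.0%). Lung and kidney differed at 27, against 46.3% of all genes, with 15 higher in lung and 12 higher in kidney (24.6% and 21.7%). The ranges of the 47 values did not overlap for 15, 14 and 15 members. Overlap was not counted over all genes, so these counts cannot be set against a share of them. The median size of the log2 fold change was 1.99, 1.84 and 2.28 for the tested members and 1.16, 0.64 and 0.88 for all genes tested. The balance of calls depended on scaling. On total counts, where the median log2 fold change of all genes became -1.43 (liver against lung) and -0.95 (liver against kidney) instead of -0.07 in both, 7 members were higher in liver and 27 in lung (9.78% and 61.6% of all genes), and 5 in liver and 24 in kidney (8.09% and 47.8%). On log2(TPM + 1) the members' splits were 7 to 23 (8.28% and 57.5% of all genes) and 5 to 17 (6.76% and 34.6%). In 31 of the 82 calls, over 15 genes, the lower tissue had a median of at most 3 counts, so those fitted fold changes depend on the offset of the log scale and are no bounds.

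**Figure D2:**
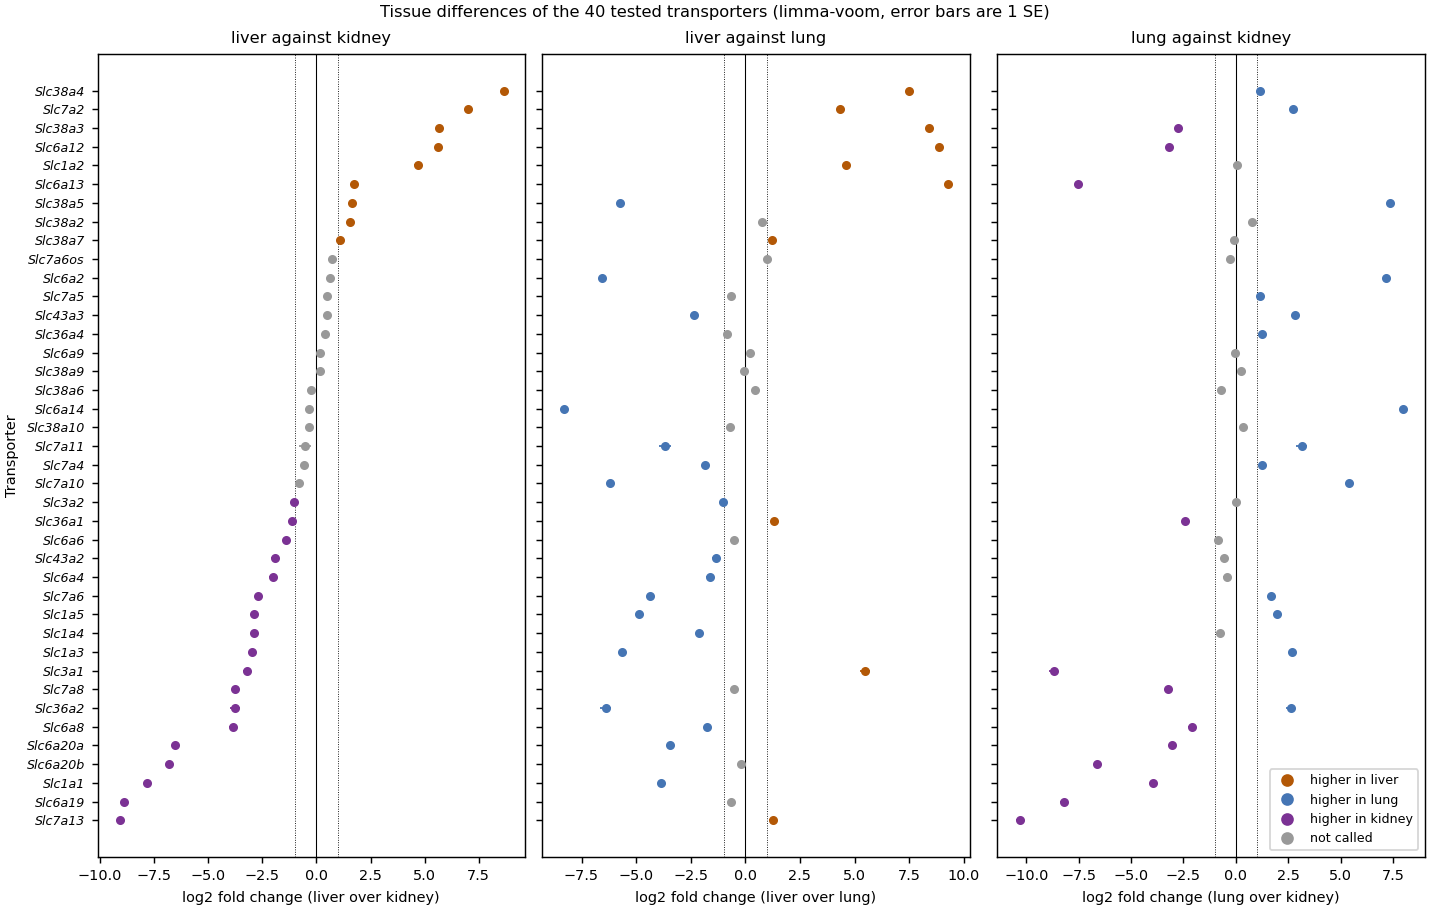
Log2 fold changes of the 40 tested transporters in 3 comparisons (limma-voom, error bars 1 SE, 47 mice per tissue), ordered by liver over kidney, with dotted lines at the threshold of 1 either way. The kidney end runs to *Slc7a13* at -9.07 and the liver end to *Slc38a4* at 8.65.

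In the kidney, 9 of the 40 tested transporters were higher than in both other tissues (22.5%, against 7.99% of all genes tested). They were the heavy subunit *Slc3a1*, its partner *Slc7a13*, the neutral and imino acid carriers *Slc6a19*, *Slc6a20a* and *Slc6a20b*, the glutamate carrier *Slc1a1*, *Slc7a8*, *Slc36a1* and the creatine carrier *Slc6a8*. *Slc7a13* ran from 202 to 1330 CPM over the kidneys (median 901), from 0 to 48.2 over the livers (median 1.28) and from 0 to 4.03 over the lungs (median 0.620). Every kidney stood above every liver and every lung, and the 3 highest livers were the 3 with raised proximal tubule genes (CC033, CC035 and CC036, at 48.2, 35.5 and 15.8 CPM). The log2 fold change of *Slc7a13* was -9.07 ± 0.15 for liver against kidney (q = 9.7e-79, limma-voom) and -10.32 ± 0.15 for lung against kidney (q = 3.6e-82). Its call as higher in liver than in lung, 1.25 ± 0.14 (33 of 47 strains), was 1.09 without the 6 strains with liver markers of other tissues and 0.81, under the threshold, without all 18, and the sign turned on log2(TPM + 1), at -0.05.

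*Slc6a19* takes up neutral amino acids across the brush border of the proximal tubule. It ranged from 114 to 771 CPM in kidney (median 313), from 0 to 17.1 in liver (median 0.481) and from 0 to 9.16 in lung (median 0.827). No kidney value came near those of the other tissues, and the highest livers were again CC033, CC036 and CC035. The log2 fold changes were -8.88 ± 0.16 for liver against kidney (q = 3.2e-73) and -8.23 ± 0.14 for lung against kidney (q = 2.9e-75, limma-voom). *Slc1a1*, which recovers glutamate and aspartate, was more even among kidneys, at 196 to 369 CPM (median 294), with 6.89 to 33.2 in lung (median 19.5) and 0.0781 to 15.5 in liver (median 1.20). All 3 tissues differed for it (-7.82 ± 0.12 for liver against kidney, -3.95 ± 0.10 for lung against kidney and -3.87 ± 0.12 for liver against lung).

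The paralogues *Slc6a20a* and *Slc6a20b*, relatives of the human proline carrier, lie side by side on the minus strand of chromosome 9 (NCBIM37, 123545240 to 123588003 and 123502938 to 123541683). *Slc6a20b* was the more abundant, with a mean of 173 ± 49.3 TPM in kidney against 23.8 ± 11.45 TPM for *Slc6a20a*. In CPM, *Slc6a20b* ran from 98.0 to 265 in kidney, from 0.810 to 3.76 in lung and from 0.349 to 12.4 in liver. *Slc6a20a* ran from 6.30 to 34.8 in kidney, from 0.372 to 8.83 in lung and from 0 to 3.11 in liver, so that lungs and kidneys overlapped for *Slc6a20a* and not for *Slc6a20b*. The log2 fold change for lung against kidney was -3.07 ± 0.09 for *Slc6a20a* and -6.61 ± 0.07 for *Slc6a20b*, and for liver against kidney it was -6.52 ± 0.12 and -6.82 ± 0.08. Of the 50-base windows of *Slc6a20a*, 22.7% also occur in *Slc6a20b*, and only uniquely aligned reads were counted, so both levels are uncertain.

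*Slc7a8*, a neutral amino acid exchanger of the tubule's blood side, ranged from 19.03 to 128 CPM in kidney (median 42.2), 1.69 to 11.9 in lung (median 4.70) and 0.806 to 8.26 in liver (median 3.23). Kidneys did not overlap the others (-3.75 ± 0.13 for liver against kidney and -3.22 ± 0.13 for lung against kidney). *Slc36a1*, a proton-coupled carrier of lysosomes and the cell surface, was measured at 52.4 to 150 CPM in kidney, 13.4 to 64.4 in liver and 11.6 to 24.6 in lung. It was higher in kidney than in lung (-2.45 ± 0.07) and liver (-1.12 ± 0.07), whereas its liver against lung value of 1.33 ± 0.07 turned to -0.02 on total counts and -0.13 on log2(TPM + 1). *Slc6a8* was low throughout, with kidney values of 0.235 to 4.76 CPM. Among members below the filter, *Slc7a12*, a carrier of small neutral amino acids, was detected in all 47 kidneys, from 0.210 to 44.9 CPM (median 2.91), and in 5 livers and 7 lungs.

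In the liver, 7 transporters were higher than in both other tissues (17.5%, against 9.36% of all genes tested), and these carry glutamine and neutral amino acids (*Slc38a3*, *Slc38a4*, *Slc38a7*), osmolytes and GABA (*Slc6a12*, *Slc6a13*), arginine (*Slc7a2*) and glutamate (*Slc1a2*). *Slc38a4* ran from 1443 to 2775 CPM over the livers (median 1931), from 5.28 to 48.96 over the lungs (median 9.99) and from 1.48 to 23.8 over the kidneys (median 4.29). Livers and the other tissues were far apart, and the highest lungs (CC015 at 48.96 and CC010 at 27.1 CPM) and the highest kidney (CC027) were libraries with raised hepatocyte genes. Other libraries went the other way. The kidney of CC005 ranked 2 for hepatocyte genes (573 CPM) but 46 for *Slc38a4* (1.57 CPM). The kidney of CC015 and the lung of CC038, each ranked 3 for *Slc38a4* (10.3 and 17.4 CPM), ranked 31 and 37 for hepatocyte genes. The log2 fold changes were 7.48 ± 0.08 against lung (q = 5.8e-95) and 8.65 ± 0.08 against kidney (q = 1.2e-98, limma-voom).

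*Slc6a12* carries betaine, and *Slc6a13* carries GABA and taurine. *Slc6a13* ranged from 112 to 311 CPM in liver (median 194), from 22.6 to 128 in kidney (median 53.6) and from 0 to 1.53 in lung (median 0.290). Its liver and kidney ranges overlapped, although every strain was higher in liver (1.74 ± 0.07, but 0.90 on total counts and 0.87 on log2(TPM + 1), under the threshold), and lung lay far below both (9.27 ± 0.11 for liver against lung). *Slc6a12* ranged from 75.8 to 153 CPM in liver, from 0.277 to 13.9 in kidney and from 0 to 1.93 in lung, with no overlap of liver with the others (5.63 ± 0.10 against kidney). The genes share under 0.2% of their 50-base windows with each other, at 0.173% for *Slc6a13* and 0.132% for *Slc6a12*.

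*Slc38a3*, a glutamine carrier that works in both directions, had 8.32 to 47.6 CPM in liver (median 22.7), at most 1.64 in kidney and at most 0.370 in lung. *Slc7a2*, which supplies arginine, had 11.7 to 53.5 CPM in liver (median 28.7), 0.310 to 2.44 in lung and at most 0.654 in kidney. For *Slc1a2*, known in perivenous hepatocytes, livers ran from 1.61 to 16.01 CPM (median 6.36) and only the highest lung, at 1.71, reached into that range. All 47 strains had more *Slc38a3*, *Slc7a2* and *Slc1a2* in liver than in either other tissue. *Slc38a7*, a glutamine carrier of lysosomes, differed little, at 11.47 to 30.98 CPM in liver, 6.00 to 14.9 in kidney and 5.67 to 13.9 in lung. Its liver against lung value of 1.21 ± 0.05 became -0.11 on total counts and -0.21 on log2(TPM + 1), and that against kidney (1.10 ± 0.05) became 0.22 and 0.19.

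In the lung, 11 transporters were higher than in both other tissues (27.5%, against 19.1% of all genes tested). Among them were the broad carrier *Slc6a14*, the glutamine exchanger *Slc1a5*, the noradrenaline carrier *Slc6a2*, *Slc43a3*, *Slc38a5*, *Slc1a3*, *Slc36a2*, *Slc7a10*, *Slc7a6*, *Slc7a4* and the cystine exchanger *Slc7a11*. *Slc6a14*, which takes up neutral and cationic amino acids, ran from 28.9 to 127 CPM in lung (median 65.7), from 0 to 1.55 in liver and from 0 to 1.93 in kidney. Lungs stood apart, with log2 fold changes of -8.29 ± 0.12 against liver (liver over lung, q = 8.8e-82) and 7.96 ± 0.12 against kidney (lung over kidney, q = 2.3e-81, limma-voom). *Slc43a3* ran from 121 to 317 CPM in lung (median 169), from 18.6 to 52.2 in liver (median 34.0) and from 15.1 to 38.9 in kidney (median 24.3). Lungs again did not overlap the others (-2.37 ± 0.05 for liver against lung and 2.84 ± 0.05 for lung against kidney).

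*Slc1a5* ranged from 34.7 to 106 CPM in lung (median 69.7), from 5.90 to 48.2 in kidney (median 17.7) and from 0.579 to 13.2 in liver (median 2.12). The highest liver was CC006, the one with adrenal genes, and the highest kidney was CC059, which also had the most adipocyte RNA. The next liver, CC013 (7.12 CPM), ranked 33 for adrenal and sympathetic genes. All 3 comparisons were called (-4.86 ± 0.09 for liver against lung, 1.96 ± 0.08 for lung against kidney and -2.90 ± 0.09 for liver against kidney). *Slc6a2*, known from sympathetic neurons and lung endothelium, spread more widely among lungs, from 5.37 to 84.4 CPM (median 27.8), and was at most 3.45 in liver and 1.93 in kidney. Endothelial genes summed to 554 and 672 CPM in the lungs with the most *Slc6a2* (CC061 and CC023) and had a median of 579.

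Lower lung levels were found for *Slc38a5*, another glutamine carrier (5.13 to 19.2 CPM), *Slc7a10*, an exchanger of small neutral amino acids (5.74 to 39.4), *Slc36a2*, a proton-coupled carrier of glycine and proline (9.44 to 31.2), *Slc7a6*, a partner of Slc3a2 (10.6 to 18.9), *Slc7a4* (1.53 to 14.3), and the glutamate carrier *Slc1a3* (13.4 to 35.8). For *Slc38a5* and *Slc7a10* no liver or kidney exceeded 1.85 CPM. *Slc36a2* overlapped only in kidney, where it was highest in CC059, CC038 and CC028 (34.3, 23.4 and 14.0 CPM, median 2.03), the 3 kidneys with the most adipocyte RNA. The part of the adipocyte RNA in that overlap was not tested. *Slc7a11*, which imports cystine for glutathione synthesis, ran from 0.885 to 22.2 CPM in lung and exceeded 5 CPM in a single liver, CC016, at 16.02. That liver also had the most macrophage RNA and the highest hepatic *Slc1a3* (5.76 CPM). The next liver for *Slc7a11*, CC041 (4.57 CPM), ranked 42 for macrophage genes, and the next for *Slc1a3*, CC001 (2.13 CPM), ranked 6. The lung highest in *Slc7a11*, CC042, ranked 21 for macrophage genes among lungs.

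The remaining tested members were not called higher in 1 tissue than in both others. *Slc6a6*, the taurine carrier, rose in order from liver (82.9 to 250 CPM, median 156) to lung (106 to 281, median 212) and kidney (294 to 605, median 386). The kidney range lay above both others, the liver against kidney value was -1.39 ± 0.06, and the values for liver against lung (-0.52 ± 0.06) and lung against kidney (-0.87 ± 0.06) were below the fold threshold. *Slc38a2*, a neutral amino acid carrier induced by amino acid shortage, had the opposite order in CPM, with medians of 212 CPM in liver, 123 in lung and 77.3 in kidney. The order of liver and lung turned in 3 of 13 alternatives, and median TPM was 75.9 in liver and 129 in lung. Its liver against kidney value was 1.53 ± 0.07, but 0.67 on total counts, under the threshold. *Slc3a2*, the heavy subunit of most Slc7 exchangers, had low deposited counts, with medians of 1.64, 3.31 and 3.47 CPM in liver, lung and kidney. It is listed with 2 transcripts, and genes with more than 1 had lower deposited values than those with 1. It was called lower in liver than in lung (-1.03 ± 0.11) and kidney (-1.02 ± 0.11), and both values fell under the threshold without the 6 strains (-0.98 and -0.97), though not without all 18.

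*Slc1a4*, a carrier of alanine, serine and cysteine, was called lower in liver (0 to 12.8 CPM, median 5.26) than in lung (11.8 to 45.9, median 24.8) and kidney (22.4 to 86.6, median 42.2). Livers and kidneys did not overlap. *Slc36a4*, a proton-independent relative of Slc36a1, was called only for lung against kidney (1.24 ± 0.06), with medians of 7.11 CPM in liver, 13.8 in lung and 5.83 in kidney. The levels were low for *Slc7a5*, a large neutral amino acid exchanger joined to Slc3a2 (medians of 3.34, 4.77 and 2.45 CPM in liver, lung and kidney), for the serotonin carrier *Slc6a4* (1.12, 4.09 and 5.17) and for *Slc43a2*, a carrier of branched-chain and aromatic amino acids (0.264, 0.915 and 1.42). *Slc7a5* was called higher in lung than in kidney, and *Slc6a4* and *Slc43a2* were called lower in liver than in both others. The highest hepatic values of *Slc7a5* and *Slc6a4*, 9.43 and 10.7 CPM, were in CC006, the liver with adrenal genes. The next were CC053 for *Slc7a5* (5.48 CPM) and CC021 for *Slc6a4* (8.75 CPM), which ranked 40 and 28 for adrenal and sympathetic genes.

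No tissue difference was called for 5 members (12.5%, against 34.1% of all genes tested). These were *Slc38a9*, the lysosomal arginine sensor of mTORC1, the glycine carrier *Slc6a9*, *Slc38a6*, *Slc38a10* and *Slc7a6os*. *Slc38a9* ran from 12.2 to 29.5 CPM in liver, from 13.1 to 29.3 in lung and from 10.4 to 23.8 in kidney. The 3 ranges overlapped, with log2 fold changes between -0.08 and 0.24. *Slc38a6* had medians of 11.3, 7.94 and 13.04 CPM in liver, lung and kidney (6.72 to 18.2, 3.56 to 12.5 and 6.203 to 20.5), and was lower in lung than in kidney by less than the threshold (-0.71 ± 0.06). *Slc38a10* was at most 2.75 CPM in any library. *Slc6a9* had medians of 27.4, 22.98 and 23.7 CPM, but 28.6% of its 50-base windows also occur in *Ccdc24*. *Slc7a6os* missed the fold threshold for liver against lung at 0.99 ± 0.04. All 5 passed in some alternative, *Slc38a10* in 4 of 13 for liver against lung, *Slc38a9* and *Slc6a9* in 3 and *Slc7a6os* in 1, and *Slc38a6* in 2 for liver against kidney. *Slc7a6os* lies on the strand opposite *Slc7a6* and does not overlap it (chromosome 8, NCBIM37, 108724338 to 108734833 and 108692775 to 108722604). Whether the counting used strand is not given in the sources used here.

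Whether a member was tested differed with the number of transcripts listed for it, and 26 members were not tested. Of the 48 members listed with 1 transcript, 33 were tested, with a median of 24.1 TPM over all 48 in the tissue where each was highest. Of the 18 with more transcripts, 7 were tested and the median was 0.614 TPM. Over all genes the medians were 6.54 TPM with 1 transcript, 0.656 with 2 and 0.481 with 3. The part of the counting in this difference was not tested. *Slc6a18*, a neutral amino acid carrier of the kidney listed with 6 transcripts, had 0 counts in every library. *Slc7a9*, the light subunit that joins Slc3a1 to recover cystine, is listed with 3 transcripts and had a median of 0.639 CPM in kidney, and the cationic amino acid carrier *Slc7a1*, with 2 transcripts, had 0.132 in lung. Low values of such genes are values of the deposited counts and cannot be read as absence.

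Among strains, transporters varied somewhat more than genes in general. Over members above 1 TPM, the median coefficient of variation of CPM was 32.5% in liver (22 members), 30.2% in lung (34) and 36.2% in kidney (35), against 26.6%, 26.3% and 25.6% for all genes above 1 TPM. *Slc7a6os*, which is not a carrier, varied least in each tissue (13.9%, 12.5% and 14.1%). *Slc38a4* was nearly as even in liver (15.6%), as were *Slc1a1* in kidney (14.6%) and *Slc6a6* in lung (15.6%). The largest coefficients were those of *Slc1a5* in liver (78.7%), *Slc6a19* in lung (124%) and *Slc36a2* in kidney (155%), followed by *Slc7a12* in kidney (131%). Counting error adds to the coefficients of low genes, and members were not matched to all genes by level. *Slc6a19* in lung had a median of 0.827 CPM, with 11 of 47 libraries at or under 3 counts. The 3 kidneys highest in *Slc36a2* were those with the most adipocyte RNA, as given above, and its part in this coefficient was not tested.

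**Figure D3:**
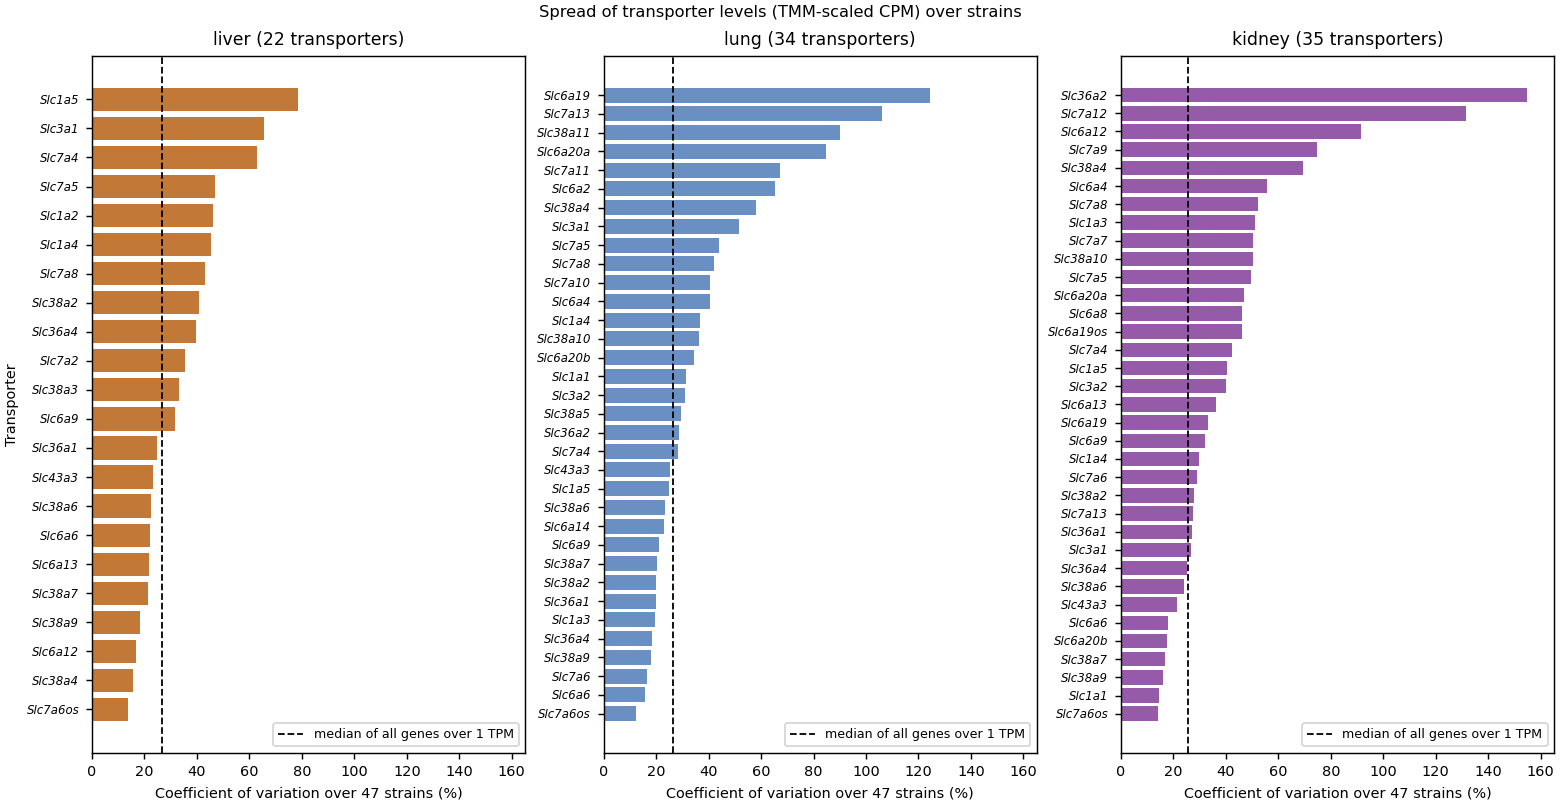
Coefficient of variation over 47 strains, in percent, of each transporter above 1 TPM in liver (22), lung (34) and kidney (35), with a dashed line at the median of all genes above 1 TPM. Bars run from *Slc7a6os* (12.5% in lung) to *Slc36a2* (155% in kidney).

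Some strains stood far out for single members. *Slc38a11*, a sodium-coupled carrier of the Slc38 family, had 12.8, 10.2, 6.07 and 5.80 CPM in the livers of CC038, CC053, CC021 and CC006, from 63, 93, 43 and 32 counts. In CC033, 4.66 CPM stood for 3 counts, the least that is resolved, and the other 42 had at most 0.736. *Slc7a12* in kidney was highest in CC012 (44.9 CPM) and CC038 (33.4). *Slc38a2* in liver was 679 CPM in CC015, against a median of 212 and a next highest value of 364. That mouse also had the lowest *Slc6a6* in liver (82.9 CPM) and lung (106 CPM). Its summed level of 22 genes of the ATF4 response, the pathway that answers amino acid shortage, was the highest in each tissue (749, 298 and 345 CPM in liver, lung and kidney, against medians of 446, 248 and 268). The liver of CC015 held 357 CPM of exocrine pancreas genes, the third most, and their part in these values was not tested. The lung of CC015 alone held the highest or the lowest value of all 47 for 9 of the 40 members, and also for 21.1% of all genes tested, and the lung of CC037 for 8 of 40 and 29.1%. CPM in the lung of CC015 also rest on its TMM scaling. Its 828 counts of *Slc43a3* among 10446736 stood for 317 CPM, and 1682 among 5904512 in the lung of CC025 for 121 CPM. Whether the ATF4 sums and *Slc6a6* of CC015 keep their ranks without TMM was not tested.

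*Slc3a1* encodes the heavy subunit rBAT, which carries Slc7a9 and Slc7a13 to the brush border and whose loss causes cystinuria. The gene lies on chromosome 17 from 85427687 to 85463583 (NCBIM37, plus strand), with the upstream window shown above on the later build. In the liver, 6 strains had between 1.27 and 5.79 CPM and the other 41 had between 23.3 and 187, with no value in between. The low livers were CC021 (1.27), CC027 (1.34), CC024 (1.85), CC049 (3.01), CC019 (3.35) and CC029 (5.79). In the kidneys of the same 6 mice *Slc3a1* was not low. They had 715, 495, 1145, 906, 899 and 774 CPM in the same order, which placed 5 of them as the 5 highest of the 47 kidneys and CC027 as number 31. The 41 other kidneys ran from 258 to 693 CPM (median 514), and the 6 had a median of 837. The highest liver value, 187 CPM in CC020, belonged to the mouse with the lowest kidney value, 258 CPM. That kidney also had the lowest proximal tubule sum (6749 CPM, median 13470) and the lowest *Slc7a13*, *Slc6a19* and *Slc6a20b*. It held the highest or the lowest kidney value for 18.7% of all genes tested. Since the liver values form separate clusters, no pooled correlation is given. Within the 41 strains r was -0.11 (permutation p = 0.473, rho = -0.10, p = 0.52), and within the 6 it was 0.38 (exact permutation p = 0.475, rho = 0.43, p = 0.419), so a relation inside either cluster was not detectable. The clusters were drawn from the measured values, so no test compares them. *Prepl*, the neighbour that shares 24.8% of the 50-base windows of *Slc3a1*, stayed between 1.33 and 6.55 CPM over liver and kidney.

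**Figure D4:**
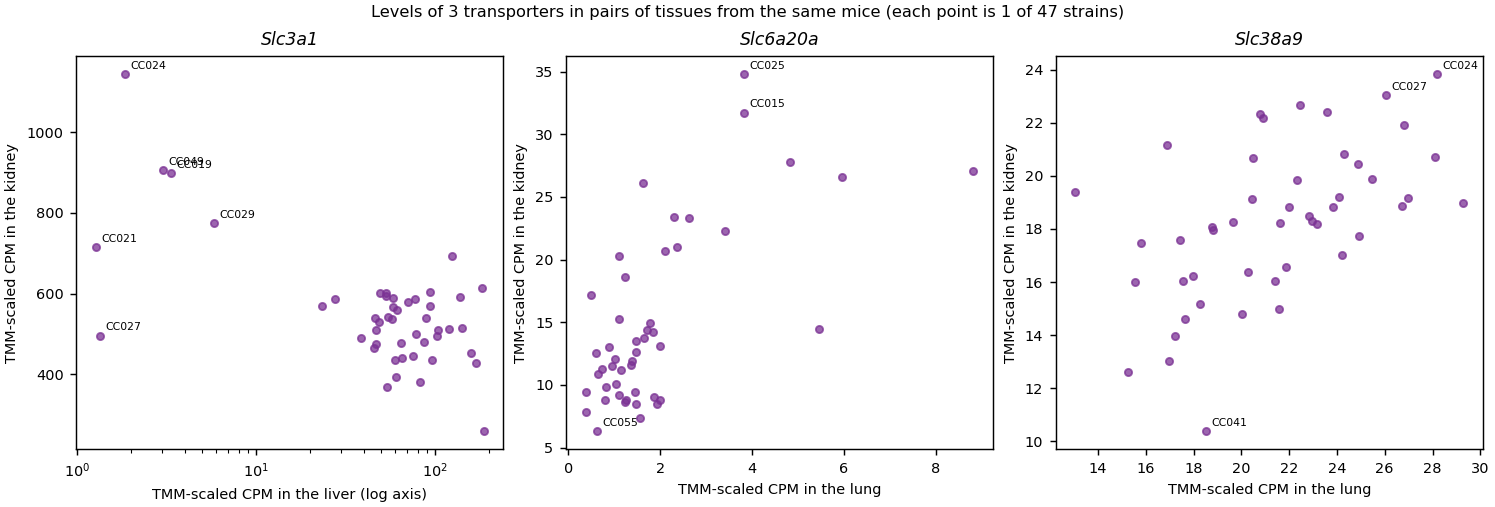
CPM of *Slc3a1* in liver (log axis) and kidney, and of *Slc6a20a* and *Slc38a9* in lung and kidney, with 1 point for each of 47 strains. The 6 strains with 1.27 to 5.79 CPM of *Slc3a1* in liver lie apart at the left, and 5 of them are the highest in kidney.

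Whether a strain's level in 1 tissue went with its level in another was asked for members that passed the expression filter in both. Values were rank inverse normal transformed, and r was tested with 100000 permutations and adjusted over all genes of the pair of tissues. Liver and lung were correlated for 1 of 15 members at q of at most 0.1, against 12.6% of all genes. Liver and kidney passed for 6 of 18, against 22.9%, and lung and kidney for 5 of 27, against 16.9%. The liver and kidney count includes *Slc3a1*, the only negative one, which is described by its clusters above. Median r was 0.07, 0.14 and 0.09 over the members and 0.13, 0.18 and 0.15 over all genes. No test compares the members' shares with those of all genes. Without the strains with a library under 3000000 counts, 0 of 15 and 3 of 18 members passed in the first 2 pairs (10.4% and 18.8% of all genes), and on TPM without TMM scaling 0, 2 and 2 members passed (1.43%, 14.6% and 3.63%).

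The members with the largest r were *Slc6a20a* and *Slc38a9*, both between lung and kidney. *Slc6a20a* had r = 0.59 (permutation q = 0.000915, rho = 0.57), and r = 0.54 without the 2 strains farthest from the median. CC025 and CC015, the highest kidneys at 34.8 and 31.7 CPM, were also above the lung median of 1.46. *Slc38a9* had r = 0.58 (q = 0.00109, rho = 0.62) between lung and kidney and r = 0.55 (q = 0.00159, rho = 0.57) between liver and kidney, and 0.54 and 0.49 without 2 strains. Without TMM scaling of TPM, r between lung and kidney was 0.05 for *Slc38a9* (q = 0.956) and 0.42 for *Slc6a20a* (q = 0.0921). CC024 had the highest *Slc38a9* of all kidneys (23.8 CPM) and CC041 the lowest in both kidney (10.4) and liver (12.2). Between lung and kidney *Slc1a5* (0.49, q = 0.0108), *Slc43a3* (0.44, q = 0.0225) and *Slc38a2* (0.40, q = 0.0466) also passed. Between liver and kidney the others were *Slc36a4* (0.43, q = 0.0229), *Slc6a9* (0.40, q = 0.0413), *Slc43a3* (0.38, q = 0.0526) and *Slc38a6* (0.36, q = 0.069), and between liver and lung it was *Slc36a4* (0.38, q = 0.0751). *Slc6a6*, abundant in all 3 tissues, had r between -0.04 and 0.18.

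For 14 of 21 transporters paired with a known partner gene, both passed the filter in the tissue named, and r across strains was ranked among all genes there. In kidney, *Slc6a19* was correlated with *Tmem27* (collectrin), the protein it needs to reach the brush border. *Tmem27* ran from 140.6 to 343 CPM over kidneys (median 246). The kidney lowest in *Slc6a19*, CC020, also had the lowest proximal tubule sum, and the highest, CC024, had the fourth highest (16373 CPM), and the part of the tubule RNA in the correlation was not tested. The pair had r = 0.52 (permutation q = 0.0633, over 10450 genes, of which 1.42% passed), and *Tmem27* ranked 24. Spearman's rho was 0.45 (q = 0.154), and r was 0.40 without the 2 farthest strains. In liver, *Slc7a2* was correlated with *Arg1*, the arginase of the urea cycle that splits arginine, at r = 0.46 (q = 0.0792, rank 86 of 8622 genes, of which 2.24% passed), with rho = 0.44 (q = 0.13) and r = 0.32 without 2 strains. Neither rank-based q passed. In kidney, *Slc7a8* and *Slc7a7* with their subunit *Slc3a2* (0.46, q = 0.367, and 0.44, q = 0.292) and *Slc7a13* with *Slc3a1* (0.42, q = 0.243) did not pass (0%, 0.0478% and 0.0383% of all genes did), nor did *Slc1a2* with glutamine synthetase, *Glul*, in liver (0.35, q = 0.567, with 0.0348% of all genes passing). These depended on scaling. On TPM without TMM, *Slc7a13* with *Slc3a1* (0.66, q = 4.79e-05) and *Slc1a2* with *Glul* (0.50, q = 0.0128) passed, and on log2 CPM *Slc7a13* with *Slc3a1* had r = 0.48 and passed. The neighbours *Slc6a20a* and *Slc6a20b*, shown by sequence above, had r = 0.0033 in kidney (q = 0.998, with 0.0383% passing), and rho was -0.020. In lung, *Slc7a5* with *Slc3a2* had r = 0.26 (q = 0.204, with 28.1% passing, but 0.57 and q = 0.00013 on TPM without TMM), *Slc7a11* with *Slc3a2* -0.099 (q = 0.804, 1.79%) and *Slc6a14* with the surfactant gene *Sftpc* -0.020 (q = 0.957, 4.91%).

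**Figure D5:**
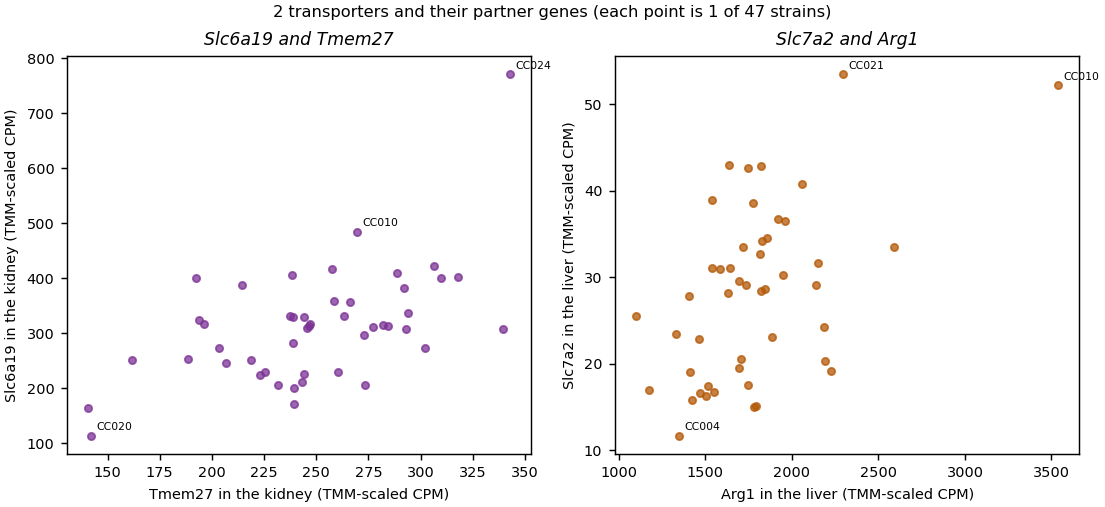
CPM of *Slc6a19* against *Tmem27* in 47 kidneys (left) and of *Slc7a2* against *Arg1* in 47 livers (right), with 1 point per strain. CC024 is highest and CC020 lowest for *Slc6a19*, and CC021 and CC010 are the highest for *Slc7a2*.

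Genes around the transporters were taken from lists chosen with earlier results of these data known, so their counts are descriptions only. Over all genes tested, 54.9% were called for liver against lung, 36.6% for liver against kidney and 46.3% for lung against kidney. Of 10 enzymes of glutamine and glutamate metabolism, 9 were tested, and 8 were higher and 1 lower in liver than in lung (median log2 fold change 3.47). Against kidney, 6 were higher and 1 lower in liver (1.28), and 8 were higher in kidney than in lung (-2.37 for lung against kidney). Of 19 other amino acid and peptide carriers, 12 were tested, with 4 higher in liver and 4 higher in lung, 4 higher in liver and 3 in kidney, and 2 higher in lung and 6 in kidney. The 4 partner subunits and chaperones had 3 tested members, and 2 of these were higher in liver than in lung, 1 higher in kidney than in liver and 2 higher in kidney than in lung. *Tmem27* is among them, with at most 9.74 CPM in liver and 1.34 in lung. Of 22 genes of the ATF4 response, 17 were tested, with 5 higher in liver and 4 in lung, 4 in liver and 5 in kidney, and 4 in lung and 3 in kidney.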

How the data were processed

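RNA-seq of liver, lung and kidney from 47 CC strains was analysed, with 1 male per strain. Per the labels and methods, RNA was extracted from snap-frozen tissue, ribosomal RNA was depleted, and 50-base single-end reads were aligned by the authors with STAR 2.5.3a to strain pseudo-genomes from mm9 (Build37) and quantified with RSEM, uniquely aligned reads only. The expected count the authors deposited for every gene in a library is in units of reads (25 values over all files were not whole), and the TPM the authors deposited divides it by transcript length. The deposited FPKM values were not used. Depth was 1738046 to 42158454 counts per library. The study's own model had a term for sequencing batch. The labels do not place samples in batches, so batch was left out of every fit and its part in the strain values was not tested. The strand of counting is not given in the sources used here.

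Members were found by gene symbol. The members and the gene lists were chosen with earlier results of these data known. Expected counts were rounded and scaled by TMM (edgeR 4.0.16), genes above 1 CPM in 30% or more of libraries were kept, and limma-voom (limma 3.58.1, R 4.3.3) was fitted with tissue and strain. Strain is the replicate block, since its 3 tissues come from the same animal. Deviations from the tissue means were shared within an animal, with median r across genes of 0.167, 0.173 and 0.212 for liver with lung, liver with kidney and lung with kidney, against -0.00474 to -0.00612 for other strains. A call needed q ≤ 0.1 (Benjamini-Hochberg) and a log2 fold change of 1 or more in size. On simulated data for liver against lung, 200 of 200 changed genes were recovered with 0 false calls over 12127 genes. The simulated tissues shared a common profile without strain effects. Only genes with counts well above the floor were changed, equally in both directions. The simulation therefore cannot test calls at low counts or the scaling of liver against the others.

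Strain correlations used rank inverse normal TMM-scaled TPM (Blom offset 0.375) of genes above 1 TPM in more than 50% of a tissue's libraries, without genes whose K-means split set a single library apart, and 100000 permutations (smallest p 1e-05). Medians or ranges are given for carriers averaging 10 CPM or more in a tissue and for *Slc3a1* and *Slc3a2*, and a value or range for other tested members. Strains and members below the filter that are singled out were chosen after their values were seen. Windows of 50 bases were counted in transcripts of GENCODE vM1 on NCBIM37, and promoters came from RefSeq on GRCm38.p6. Alternatives covered scaling, tests, filters, thresholds, the replicate block and left-out strains. DESeq2 1.42.0, Python 3.11.15, scipy 1.17.1, pandas 2.3.3, numpy 2.4.6 and matplotlib 3.10.9 were used.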

Additional observations from a re-analysis of the deposited data

How the results depend on the processing

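The calls between tissues depended mainly on how liver was scaled against the others. Of the 82 called differences, 1035 values under 13 alternatives kept direction and call, 24 fell under the threshold and 7 changed sign. The changes of sign were *Slc36a1* in liver against lung (-0.0177 on total counts, -0.131 on log2(TPM + 1), -0.137 on log2(TPM + 0.1)), *Slc38a7* there (-0.114, -0.207 and -0.223) and *Slc7a13* there (-0.0489 on log2(TPM + 1)). *Slc38a7* also fell to 0.98 with DESeq2 size factors, and the liver against kidney values of *Slc38a2* and *Slc6a13* fell to 0.67 and 0.90 on total counts. Without strain as the replicate block, 28, 27 and 27 members were called, and no called difference changed. The counts were 28, 27 and 27 at q of at most 0.01, 28, 28 and 27 with edgeR, 30, 28 and 27 with DESeq2, 28, 26 and 27 without 6 strains whose livers held markers of other tissues, and 27, 28 and 27 without all 18 such strains, both settings chosen after seeing the data. Of the 38 comparisons not called, 18 had the other sign in some alternative and 18 passed in some alternative.

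Strain correlations depended on scaling more. On TPM not scaled by TMM, the members that passed were 0 of liver with lung, 2 of liver with kidney and 2 of lung with kidney (1.43%, 14.6% and 3.63% of all genes). Without the strains with a library under 3000000 counts, these counts were 0 and 3 in the first 2 pairs (10.4% and 18.8% of all genes). Leaving out TMM, *Slc7a5* with *Slc3a2* (0.57), *Slc1a2* with *Glul* (0.50), *Slc1a4* with *Glul* (0.42), *Slc7a13* with *Slc3a1* (0.66) and *Slc38a5* with *Alas2* (0.51) passed, and r changed sign for *Slc38a2* between lung and kidney (-0.0295) and for *Slc7a9* with *Slc3a1* (0.0806), *Slc7a11* with *Slc3a2* (0.36), *Slc6a4* with *Pecam1* (0.25) and *Slc6a14* with *Sftpc* (0.62). That last r was 0.0124 by Spearman and 0.0243 without the 2 farthest strains, and *Slc6a20a* with *Slc6a20b* had -0.020 by Spearman and -0.0151 without low-depth strains. The cause of these changes was not tested. Depth limits members with medians of at most 3 counts in a tissue, and the reads in which paralogues or neighbours are identical were not counted.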
